A study of Mus musculus with 4 samples.

Results

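The genes described here encode the nuclear subunits of the mitochondrial respiratory chain and of ATP synthase, in cultured neurons and astrocytes of mouse cerebral cortex. They were found by name, not by level: every gene whose symbol matched the Nduf, Sdh, Uqcr, Cox4 to Cox8 and Atp5 subunit families, together with Cyc1 and Cycs, and that had at least 1 probe set annotated to it alone. This gave 82 genes of the 18193 with such a probe set, read by 168 probe sets. Of the 82 genes, 78 passed a filter on dim probe sets and were tested. The other 4, Cox4i2, Cox7b2, Cox8b and Ndufb4, had signals between 2 and 29 on the 4 arrays and were not tested. Ndufs6, Ndufa11 and Cox7b had no probe set annotated to them alone and were not analysed here. The same holds for the 13 subunits encoded by mitochondrial DNA.

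The study profiled 2 neuron cultures and 2 astrocyte cultures, labelled as biological replicates, on Affymetrix arrays. All came from C57BL6 mice, with no transgene or drug named for either group. Neurons were taken from fetuses at embryonic day 16 and kept for 7 days in vitro, after plating in serum-rich medium, in medium that held 19.4 mM glucose, serum at 1% and added insulin, transferrin, progesterone, putrescine and selenite. Astrocytes came from newborn animals and were kept for 20 days with 10% serum and glucose at 33 mM. A protocol shared by both groups gives 1 common culture period, shorter than the 20 days the series description states for astrocytes. Cell type, donor age, medium and time in culture changed together and cannot be told apart. In RNA from whole cultures, fewer cells of a type and less RNA per cell cannot be told apart either. Nothing in the labels says whether replicates came from separate animals, so p-values measure only the spread between these arrays.

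The respiratory chain sits in the inner mitochondrial membrane. Complex I takes electrons from NADH and complex II takes them from succinate; both pass them through coenzyme Q to complex III, from there through cytochrome c to complex IV, and on to oxygen. Complexes I, III and IV pump protons, and ATP synthase, also called complex V, lets them back to make ATP. Most subunits are encoded in the nucleus, and several of complex IV and of the ATP synthase c ring exist as paralogous isoforms with different tissue patterns. Neurons depend heavily on this pathway, whereas astrocytes are known for a high rate of glycolysis.

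Subunit transcripts were in most cases modestly higher in neurons or close to equal between the cultures. Of 78 tested genes, 37 were higher in neurons (47.4%) and 6 were higher in astrocytes (7.69%) at an adjusted p under 0.05 in limma, which is what "called" means here; 35 were not called. Over all 12040 genes tested, 31.0% were called higher in neurons and 31.1% higher in astrocytes, 62.2% together. The median log2 fold change, neurons minus astrocytes throughout, was 0.26 over the subunit genes and 0.02 over all genes. The middle part of the subunit genes ran from -0.03 to 0.47 (quartiles), against -0.70 to 0.67 for all genes. Fold changes were small: the median fold of the 37 genes was 1.39, and 31 of them were under 1.6-fold. Differences of at least 2-fold were called for Atp5md, Ndufb1 and Cox6a2 in neurons and for Cox6b2 in astrocytes, 4 of 78 genes, where 36.8% of all genes reached this. The groups' arrays did not overlap in 54 genes, 44 of them higher in neurons and 10 in astrocytes. Of all genes, 81.9% did not overlap, 41.4% with neurons higher and 40.5% with astrocytes higher.

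The number of calls rested on each of the 4 arrays. Without neurons replicate 1, neurons replicate 2 or astrocytes replicate 1, the subunit share called higher in neurons was below that of all genes. With neurons replicate 1 left out, 11 genes were called higher in neurons and 3 in astrocytes. Leaving out neurons replicate 2 gave 13 and 3, leaving out astrocytes replicate 1 gave 13 and 6, and leaving out astrocytes replicate 2 gave 21 and 3. The median over the subunit genes stayed between 0.22 and 0.30 in these 4 fits, in which 42.9% to 46.3% of all genes were called. Neurons replicate 1 exceeded neurons replicate 2 in 65 of 78 genes, and astrocytes replicate 2 exceeded astrocytes replicate 1 in 64. Relative to each gene's own mean, the subunit genes had a median log2 signal of 0.17 (replicate 1) and 0.06 (replicate 2) in neurons, and of -0.18 and -0.07 in astrocytes. For all genes the same medians lay between -0.00 and 0.02. The part of these array differences in the result was not tested. The following 12 genes were called under every alternative that gave them a value: Ndufa5, Ndufa13, Ndufb1, Sdha, Cyc1, Cox5a, Cox6a2, Cox6b2, Cox7a2, Atp5g1, Atp5md and Atp5mpl.

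**Figure D1:**
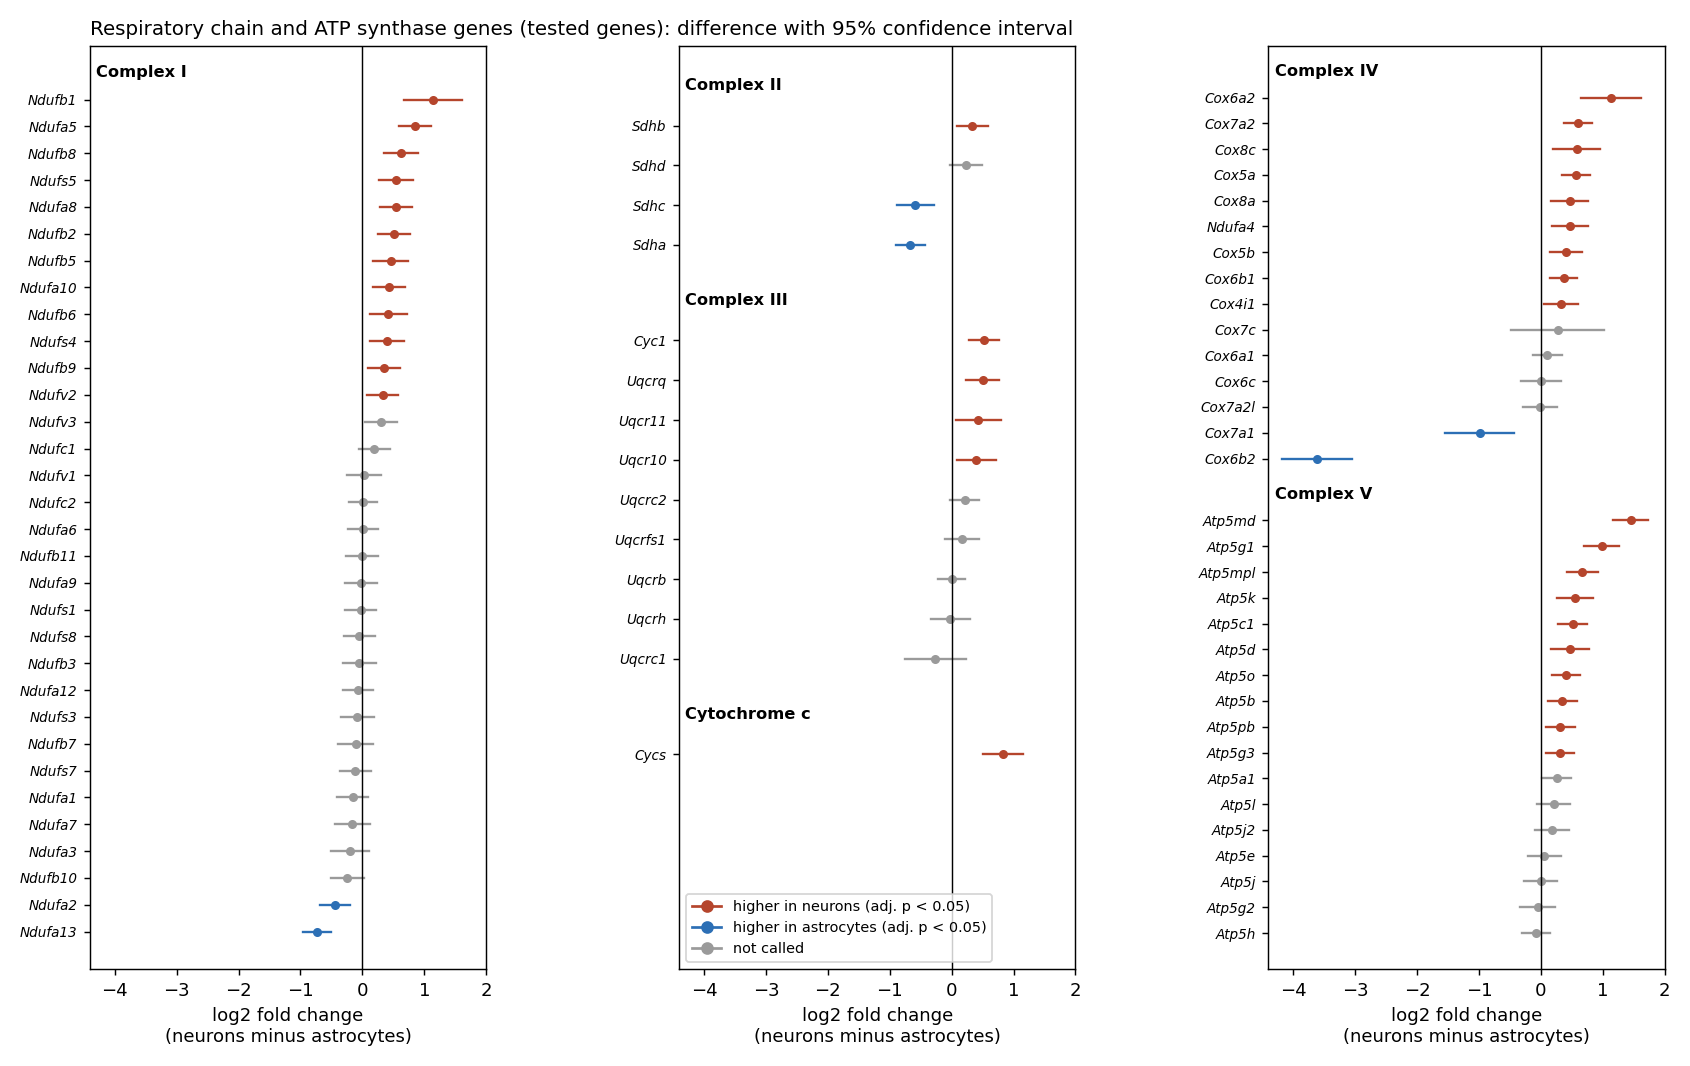
Log2 fold change (neurons minus astrocytes, horizontal axis) of the 78 tested genes, grouped by complex; points are the limma estimates from 2 arrays per group, bars their 95% confidence intervals, and colour marks the call. Most points lie between 0 and 1, with Cox6b2 apart at -3.61 and Atp5md farthest to the right at 1.45.

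The plot of differences by complex shows that the shift was not shared evenly. Complexes IV and V lay mostly to the right of 0, complex I straddled it, and complex II was divided. The medians were 0.01 for complex I, -0.18 for complex II, 0.21 for complex III, 0.37 for complex IV and 0.31 for ATP synthase. The complex II median was 0.00 with the mean of all kept probe sets and 0.23, the other sign, without suffixed probe sets, which left 3 of its genes. No test compared the complexes with each other.

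The cultures carried the markers of their labels, with signs of other cells. All 12 neuron markers were called higher in neurons, and their summed signal was 34622 and 34305 in neurons against 3191 and 2982 in astrocytes, where Snap25, Nefm and Dcx were at or under background. Of these markers, Rbfox3, Snap25, Nefl, Nefm, Dcx and Elavl3 passed the filter only through their neuron arrays. The summed signal of 12 astrocyte markers was 32753 and 32281 in astrocytes and 11559 and 12473 in neurons, where 11 of the 12 were above background. Of these 12, 9 were called higher in astrocytes, while Slc1a2 (1832 and 1865 in neurons against 431 and 379) and Aldoc were called higher in neurons. In astrocytes the sums were also higher for 10 endothelial and mural markers (7963 and 8754 against 228 and 636). Nearly all of this astrocyte signal came from the mural genes Acta2, Tagln and Pdgfrb. The other mural gene, Rgs5, was dim in both cultures (36 and 32 against 22 and 27). The 6 endothelial genes Pecam1, Cldn5, Cdh5, Kdr, Tek and Flt1 read 2 to 50 in astrocytes. The sums were higher there for 8 fibroblast and meningeal markers (4029 and 4249 against 1703 and 1840, or 4010 and 4228 against 526 and 538 without Pdgfra, which is also an oligodendrocyte lineage marker), for 10 microglial markers (893 and 880 against 148 and 214) and for 6 ependymal and choroid plexus markers (1169 and 1272 against 152 and 107). Most of the fibroblast and meningeal sum in astrocytes came from Islr (2465 and 2689 against 29 and 32). Dcn (255 and 261 against 290 and 391) and Lum (23 and 17 against 40 and 45) read lower in astrocytes, as did Pdgfra. In neurons the sum of 7 proliferation markers was higher (2542 and 1795 against 508 and 661). For 9 oligodendrocyte lineage markers the sums were 5705 and 4933 in neurons and 5550 and 6140 in astrocytes, but 4 were called higher in neurons, among them Pdgfra (1177 and 1302 against 19 and 21) and Mbp (420 and 431 against 16 and 16), and Olig1 and Cnp were called higher in astrocytes. Pdgfra and Mbp passed the filter only through their neuron arrays. The part of these other cells in the results below was not tested.

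Promoters are shown for 4 genes on which the results turn: the common and testis isoforms of a cytochrome oxidase subunit, which differed in opposite directions, the flavoprotein of complex II, higher in astrocytes, and the ATP synthase subunit with the greatest excess in neurons. Each is the RefSeq window of 300 bases (GRCm38.p6, 250 before and 50 after the annotated start), 5′ to 3′ on the gene's strand, which is the minus strand in all 4 cases. Capitals mark matches to the cores of motifs known from promoters of respiratory genes: that of NRF1, as seen in capitals in the Sdha window with any base at the sixth place, and CCGGAAG for the ETS family, to which GABP belongs, on either strand. The windows are at chr7:30626065-30626364 for Cox6b1, chr7:4753045-4753344 for Cox6b2, chr13:74350191-74350490 for Sdha and chr19:47090598-47090897 for Atp5md.
Cox6b1: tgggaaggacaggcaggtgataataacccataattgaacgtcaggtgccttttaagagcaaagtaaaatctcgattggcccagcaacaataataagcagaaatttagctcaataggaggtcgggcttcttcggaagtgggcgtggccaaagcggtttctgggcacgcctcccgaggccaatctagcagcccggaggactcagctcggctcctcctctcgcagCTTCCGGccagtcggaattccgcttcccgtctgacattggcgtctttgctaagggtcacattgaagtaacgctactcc
Cox6b2: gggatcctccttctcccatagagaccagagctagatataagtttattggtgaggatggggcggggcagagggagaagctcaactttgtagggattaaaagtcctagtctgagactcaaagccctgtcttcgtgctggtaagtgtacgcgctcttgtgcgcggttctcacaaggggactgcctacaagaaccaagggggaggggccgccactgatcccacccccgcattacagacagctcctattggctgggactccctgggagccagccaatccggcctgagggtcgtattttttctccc
Sdha: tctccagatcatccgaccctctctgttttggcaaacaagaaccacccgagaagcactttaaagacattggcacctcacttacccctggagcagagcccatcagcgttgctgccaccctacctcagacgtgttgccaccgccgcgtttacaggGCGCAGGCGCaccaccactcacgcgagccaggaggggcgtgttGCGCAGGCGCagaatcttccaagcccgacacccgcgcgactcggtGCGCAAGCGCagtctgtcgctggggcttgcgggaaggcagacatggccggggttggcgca
Atp5md: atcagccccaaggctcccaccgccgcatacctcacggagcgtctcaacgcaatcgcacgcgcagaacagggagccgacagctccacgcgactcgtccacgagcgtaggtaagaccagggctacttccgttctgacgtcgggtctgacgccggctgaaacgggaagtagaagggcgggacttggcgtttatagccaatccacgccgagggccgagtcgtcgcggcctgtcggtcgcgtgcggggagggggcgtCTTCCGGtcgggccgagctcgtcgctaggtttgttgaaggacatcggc
The Cox6b1 and Atp5md windows each held 1 ETS match, the Sdha window held 3 NRF1 matches, and the Cox6b2 window held none. Over all subunit genes, 67 of 82 had an entry, with 72 windows. The NRF1 core was in 16 of the 72 (22.2%), against 4.60% of all 32851 windows of this length. The ETS core was in 17 (23.6%, against 8.86%) and the YY1 core AAGATGG in 10 (13.9%, against 6.34%). Among genes with a window, the NRF1 core was in 7 of 30 genes higher in neurons, in 1 of 4 higher in astrocytes and in 6 of 30 tested but not called. The ETS core was in 7, 0 and 10 of the same genes, and the YY1 core in 3, 0 and 7. An ETS and a YY1 match can share the letters AAG where they abut. A match describes the letters of the window and is not a measured binding site.

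Complex I, the NADH dehydrogenase, had 32 tested genes. Of these, 12 were called higher in neurons (37.5%, near the 31.0% of all genes) and 2 higher in astrocytes (6.25%, against 31.1%). Its enzymatic core in the hydrophilic arm, which binds NADH and carries the flavin and iron-sulfur clusters, was nearly level between the cultures. Of its 6 measured genes only Ndufv2 was called, and the median log2 fold change was -0.04. The accessory genes of the membrane arm held most of the calls, 9 of 18 higher in neurons and 1 in astrocytes, with a median of 0.27. The accessory genes of the hydrophilic arm had 2 of 8 higher in neurons and 1 in astrocytes, with a median of -0.01.

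Ndufs1, the largest iron-sulfur subunit, had signals of 1153 and 1108 in neurons and 1166 and 1140 in astrocytes. All 4 arrays lay close together, and the log2 fold change was -0.03 with a 95% confidence interval from -0.28 to 0.22 (adjusted p = 0.845). Ndufv1, the subunit that binds NADH and flavin, read 1555 and 1478 in neurons and 1387 and 1609 in astrocytes, so that the groups overlapped (0.02, interval -0.25 to 0.29). Ndufs3 read 1715 and 1610 against 1648 and 1875, and Ndufs8, an iron-sulfur subunit near the membrane, 1756 and 1694 against 1702 and 1872. Both pairs of groups overlapped, with intervals from -0.35 to 0.18 and from -0.30 to 0.20. Ndufs7, which carries the last iron-sulfur cluster before coenzyme Q, read 1046 and 1045 in neurons and 1140 and 1129 in astrocytes; here the groups did not overlap, but the difference of -0.12 was not called (adjusted p = 0.397). Ndufv2, another iron-sulfur subunit, read 2542 and 2478 in neurons and 1891 and 2106 in astrocytes. All 3 of its tested probe sets were called higher in neurons, at 0.33 to 0.68. In the brightest, given here, both neuron arrays were above both astrocyte arrays (0.33 ± 0.11 SE, adjusted p = 0.0296). This call was lost without neurons replicate 1 (adjusted p = 0.151), neurons replicate 2 (0.125) or astrocytes replicate 1 (0.118).

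In the accessory subunits, Ndufb1, a small membrane-arm protein, was read by 1 dim probe set, with signals of 140 and 109 in neurons and 47 and 51 in astrocytes. Both neuron arrays were far above both astrocyte arrays, and the log2 fold change was 1.15 ± 0.20 (SE, adjusted p = 0.00142). Ndufa5, which sits in the hydrophilic arm, read 1338 and 1296 against 715 and 742, with the replicates of each group close together (0.84 ± 0.11, adjusted p = 0.000272). In the other direction, Ndufa13, also known as GRIM-19 for a role in cell death, read 2432 and 2384 in neurons and 3879 and 4155 in astrocytes. Both astrocyte arrays were clearly above both neuron arrays (-0.73 ± 0.10, adjusted p = 0.000322). The probe set for Ndufa13 carries the suffix for probes that can match several transcripts. Ndufa2, a thioredoxin-like subunit, read 1814 and 1739 against 2361 and 2483 (-0.44 ± 0.10, adjusted p = 0.0063), again without overlap. Its call was lost without neurons replicate 1 (adjusted p = 0.0518), neurons replicate 2 (0.0674) or astrocytes replicate 2 (0.0544). Ndufc2, a membrane-arm subunit, read 4072 and 4241 in neurons and 4058 and 4191 in astrocytes, which is level (0.01, interval -0.21 to 0.23).

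The other accessory genes called higher in neurons were Ndufb8, Ndufs5, Ndufa8, Ndufb2, Ndufb5, Ndufa10, Ndufb6, Ndufs4 and Ndufb9, with log2 fold changes from 0.62 down to 0.35. The Ndufs5 value is uncertain, because the annotation pairs another of its probe sets with a pseudogene copy. Ndufv3 missed the threshold at 0.30 (adjusted p = 0.0510). Ndufc1, Ndufa6, Ndufb11, Ndufa9, Ndufb3, Ndufa12, Ndufb7, Ndufa1, Ndufa7, Ndufa3 and Ndufb10 were not called, at values from 0.19 to -0.25. With single arrays left out, the count higher in neurons fell from 12 to 4 without neurons replicate 1 and to 5 without neurons replicate 2. It was 4 when astrocytes replicate 1 was dropped and 8 when astrocytes replicate 2 was. Ndufa5, Ndufb1 and Ndufa13 were called in all 4.

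Complex II, succinate dehydrogenase, is the only one of the complexes built wholly from nuclear genes, and it also works in the citric acid cycle. Its 4 genes were divided, with Sdha and Sdhc higher in astrocytes and Sdhb higher in neurons. Sdha, the flavoprotein that oxidises succinate, had signals of 1699 and 1606 in neurons and 2587 and 2673 in astrocytes. The replicates of each group lay close together and the groups were well apart (-0.67 ± 0.10 SE, adjusted p = 0.000686). A second probe set for Sdha read 919 and 893 against 1845 and 1878, also higher in astrocytes (-1.03 ± 0.11), whereas a dimmer one read 49 and 66 against 49 and 44 and was not called (0.24, adjusted p = 0.401).

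Sdhb, the iron-sulfur partner of Sdha in the catalytic part, read 2636 and 2845 in neurons and 2050 and 2296 in astrocytes. The order was the reverse of that of Sdha, without overlap (0.33 ± 0.11, adjusted p = 0.0307). Its call was lost with any 1 array left out, at adjusted p values from 0.058 to 0.186. Sdhc, one of the membrane anchors that bind coenzyme Q, read 498 and 476 against 690 and 787, higher on both astrocyte arrays (-0.59 ± 0.13, adjusted p = 0.00459). That call was lost without neurons replicate 1 (adjusted p = 0.0514), neurons replicate 2 (0.0629) or astrocytes replicate 2 (0.0645), and with the mean of all probe sets (0.0552). Sdhd, the other anchor, read 1112 and 1122 in neurons and 942 and 959 in astrocytes, without overlap but not called (0.23, interval -0.02 to 0.48, adjusted p = 0.109). A dimmer Sdhd probe set read 203 and 220 against 163 and 94 and was called higher in neurons (0.71 ± 0.24, adjusted p = 0.0312), and with the mean of both the gene was called (0.47, adjusted p = 0.0203). No difference between the subunits was tested.

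**Figure D2:**
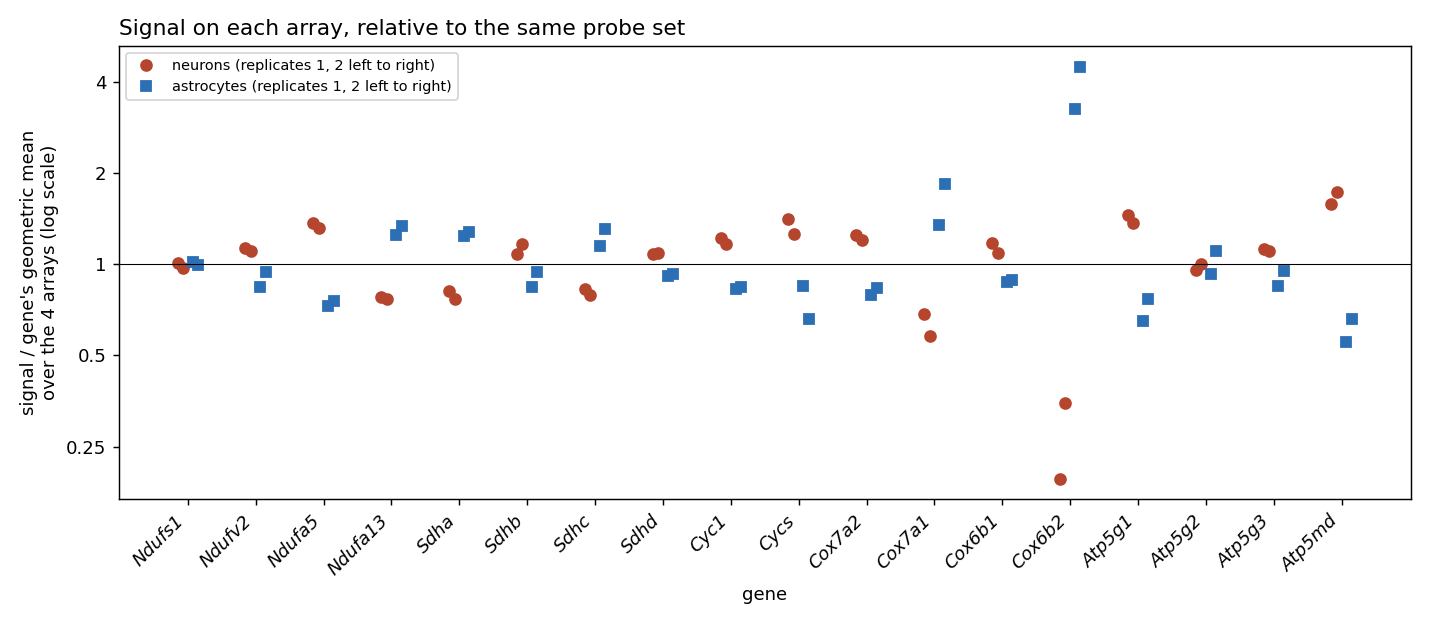
Signal of 18 genes on each of the 4 arrays, divided by the geometric mean of the same gene over the arrays (log scale, vertical axis); circles are neurons and squares astrocytes, with replicates 1 and 2 from left to right. Sdha and Sdhc lie higher in astrocytes and Sdhb and Sdhd higher in neurons, and Cox6b2 has the widest gap.

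The plot of array signals sets each gene only against itself, since probes differ in brightness. In it the 2 replicates of Sdha, Ndufa13, Ndufa5 and Cyc1 nearly coincide, whereas those of Cox6b2, Cox7a1 and Cycs are spread.

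Complex III, the cytochrome bc1 complex, had 4 of 9 genes called higher in neurons by limma (44.4%, against 31.0% of all genes). It had 0 called the other way, against 31.1% of all genes. At an unadjusted p under 0.05 no gene of complex III was higher in astrocytes either. Cyc1, the haem-bearing cytochrome c1 subunit that hands electrons to cytochrome c, read 2396 and 2284 in neurons and 1614 and 1644 in astrocytes. The groups were well apart (0.52 ± 0.10 SE, adjusted p = 0.00278). Uqcrq, a small subunit, read 2092 and 1850 against 1337 and 1434 (0.50 ± 0.12, adjusted p = 0.00566). Its call was lost without neurons replicate 1, astrocytes replicate 1 or astrocytes replicate 2, at adjusted p values up to 0.0745, and with other choices of probe set. Uqcrb, another small subunit, read 5747 and 6013 in neurons and 5958 and 5785 in astrocytes and was level (0.00, interval -0.22 to 0.22).

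Of the remaining genes, the small subunits Uqcr11 (0.43, adjusted p = 0.0468) and Uqcr10 (0.40, adjusted p = 0.0326) were called, and both calls were lost with any 1 array left out. Uqcr10 also turned to -0.22, not called, when only its probe set without a suffix s, x or a was read. That probe set read 152 and 129 in neurons and 165 and 165 in astrocytes. It was much dimmer than the one used (1902 and 1568 against 1218 and 1401). The core proteins Uqcrc1 (-0.26, interval -0.76 to 0.24) and Uqcrc2 (0.21), the Rieske iron-sulfur protein Uqcrfs1 (0.17) and the hinge protein Uqcrh (-0.02) were not called. For complex III the count fell to 1 without neurons replicate 1, astrocytes replicate 1 or astrocytes replicate 2, and to 2 without neurons replicate 2.

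Cycs, the cytochrome c that shuttles electrons from complex III to complex IV and also acts in apoptosis, read 4974 and 4408 in neurons and 2979 and 2316 in astrocytes. Both neuron arrays were above both astrocyte arrays by 1.78-fold on average (0.83 ± 0.14 SE, adjusted p = 0.000971). All 3 of its tested probe sets were called in this direction, at 0.76 to 0.95. The call was lost without neurons replicate 1 (adjusted p = 0.0744) or neurons replicate 2 (0.0505).

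Complex IV, cytochrome c oxidase, had 9 of 15 genes called higher in neurons (60%, against 31.0% of all genes). Another 2 were called higher in astrocytes (13.3%, against 31.1%). Ndufa4, named for complex I, is placed here because its protein is a subunit of complex IV. Of the 10 tested genes that are common isoforms or have no paralog, 7 were called higher in neurons and 0 higher in astrocytes, with a median of 0.39, while the isoforms known from muscle and testis went both ways. The counts for the complex fell from 9 to 3 without neurons replicate 1, neurons replicate 2 or astrocytes replicate 1, and to 4 without astrocytes replicate 2.

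Among the common isoforms, Cox7a2, a small subunit, had signals of 5836 and 5607 in neurons and 3683 and 3889 in astrocytes, well apart (0.59 ± 0.10 SE, adjusted p = 0.000896). Cox5a, a subunit that faces the matrix, was named after its values were seen; it differed by 0.57 ± 0.10 (adjusted p = 0.00121). Cox4i1, a subunit that takes part in the control of the enzyme by ATP, read 5616 and 4887 against 3902 and 4486, with each neuron array above each astrocyte array (0.32 ± 0.12, adjusted p = 0.043). Its call was lost with any 1 array left out (adjusted p from 0.0786 to 0.297). Cox8a read 3626 and 3066 against 2205 and 2624, also without overlap (0.47 ± 0.13, adjusted p = 0.0142); this call too was lost with any 1 array left out (0.0559 to 0.182).

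Cox5b and Ndufa4 were called at 0.40 and 0.47. Both calls were lost in limma with no filter (adjusted p = 0.069 and 0.0609) and with no mean-variance trend (0.0796 and 0.0613). With single arrays left out, the differences ran from 0.30 to 0.51 for Cox5b and from 0.35 to 0.58 for Ndufa4. Cox6a1 read 8017 and 7879 in neurons and 6949 and 7893 in astrocytes, where astrocytes replicate 2 reached the neuron range, and was not called (0.10, adjusted p = 0.424). A second Cox6a1 probe set read 4442 and 4215 against 2704 and 3224 and was called (0.55 ± 0.12, adjusted p = 0.0037), so the gene's value depends on the probe set. Cox6c was level at -0.00, and Cox7c was read only by a dim probe set (43 and 92 against 63 and 40). Cox7a2l, a factor that joins complexes into supercomplexes, read 1360 and 1232 against 1384 and 1239 and did not separate the groups (-0.02, interval -0.29 to 0.26).

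The tissue-restricted isoforms held the widest differences. Cox6b2, an isoform of the subunit that bridges the oxidase dimer and is known from testis, had signals of 44 and 78 in neurons and 733 and 1014 in astrocytes. Both neuron arrays were above the highest Bacillus control (21 and 23), and both astrocyte arrays were far higher, by 12.2-fold (-3.61 ± 0.25 SE, adjusted p = 5.2e-06). Leaving out single arrays gave -3.95 to -3.27, all called. Its common counterpart Cox6b1 read 6534 and 6061 in neurons and 4847 and 4906 in astrocytes, in the other direction (0.37 ± 0.10, adjusted p = 0.0111). The Cox6b1 call was lost with any 1 array left out (adjusted p from 0.0536 to 0.108). The difference between the paralogs was not tested, and Cox6b2 was read by a single probe set.

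Cox7a1, the heart and muscle counterpart of Cox7a2, read 26 and 22 in neurons and 51 and 70 in astrocytes, so its direction also opposed that of its common isoform (-0.99 ± 0.24, adjusted p = 0.00759). It passed the filter only through its astrocyte arrays, and the call was lost without neurons replicate 1 (adjusted p = 0.0584), neurons replicate 2 (0.0779) or astrocytes replicate 2 (0.0707). Cox6a2, the heart and muscle counterpart of Cox6a1, was dim but higher in neurons, at 89 and 98 against 32 and 40 (1.13 ± 0.21, adjusted p = 0.00181). Cox8c, a testis isoform, read 160 and 162 in neurons and 106 and 101 in astrocytes, with close replicates (0.58 ± 0.17, adjusted p = 0.0159), and lost its call with any 1 array left out (0.0599 to 0.0874). The untested isoforms stayed dim in both cultures: Cox4i2 at 29 and 18 against 17 and 20, Cox7b2 at 21 and 17 against 22 and 12, and Cox8b at 22 and 26 against 2 and 10. The Cox8b and Cox4i2 readings lie near the Bacillus controls and give no order.

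**Figure D3:**
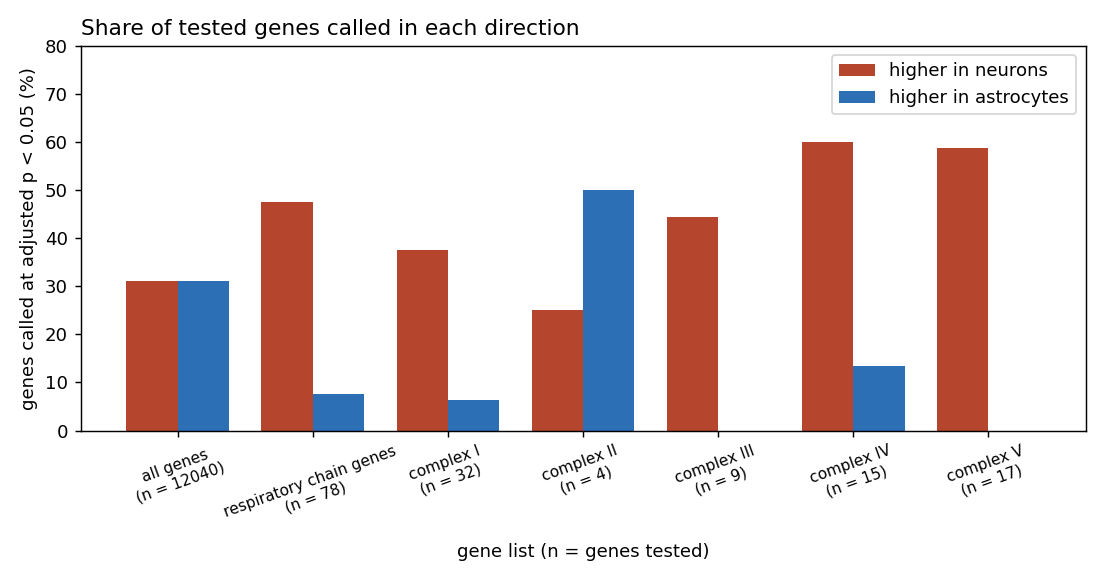
Percent of tested genes called higher in neurons or in astrocytes at an adjusted p under 0.05 (bars from 0), for all genes, all subunit genes and each complex, with the number tested under each bar. All genes stand at 31.0% and 31.1%, the subunit genes at 47.4% and 7.69%, and complexes III and V have no gene higher in astrocytes.

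The plot of shares called places these counts beside the background of all genes. Complex II is the only complex in it with more genes called higher in astrocytes than in neurons, and it holds just 4 genes. That order rests on the choice of probe set: with the mean of all kept probe sets 2 of its genes were higher in neurons and 1 in astrocytes, and without suffixed probe sets it was 1 and 1.

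ATP synthase had 10 of 17 genes called higher in neurons by limma (58.8%, against 31.0% of all genes). It had 0 called the other way, against 31.1% of all genes. At an unadjusted p under 0.05 there was no gene higher in astrocytes either. The calls were spread over its parts: 3 of 5 genes of the F1 head and central stalk, 2 of 4 of the peripheral stalk, 2 of 3 of the c ring and 3 of 5 small membrane subunits. Medians ran from 0.16 in the peripheral stalk to 0.55 in the small membrane subunits.

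Atp5md, a small membrane subunit linked to ATP synthase dimers, had signals of 4097 and 4499 in neurons and 1433 and 1707 in astrocytes. The neuron arrays were well above the astrocyte arrays, by 2.73-fold (1.45 ± 0.12 SE, adjusted p = 1.69e-05), and the difference stayed at 1.32 to 1.57 with single arrays left out. Another small subunit, Atp5mpl, was named after its values were seen; it read 1869 and 1764 against 1175 and 1104 (0.67 ± 0.11, adjusted p = 0.000938).

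The c ring, the rotor that protons turn, is built from 1 mature protein that 3 genes encode with different import signals. Atp5g1 read 2119 and 1994 in neurons and 949 and 1122 in astrocytes, close to a doubling (0.99 ± 0.12, adjusted p = 0.000181). Atp5g3 read 6527 and 6435 against 4930 and 5545, higher in neurons by less (0.31 ± 0.10, adjusted p = 0.0295). Its call was lost without neurons replicate 1 (adjusted p = 0.177), neurons replicate 2 (0.161) or astrocytes replicate 1 (0.0947). Atp5g2 read 1382 and 1446 against 1339 and 1598, with both neuron values inside the astrocyte range (-0.05, interval -0.33 to 0.24). The confidence interval of Atp5g1 (0.70 to 1.27) lay above those of Atp5g3 (0.08 to 0.54) and Atp5g2; the differences between the 3 genes were not tested.

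In the F1 head, where ATP is made, the catalytic subunit gene Atp5b (0.34), the central stalk gene Atp5c1 (0.51) and Atp5d (0.47) were called, while Atp5a1 (0.25, adjusted p = 0.0666) and Atp5e (0.06) were not. The Atp5c1 call was lost without neurons replicate 1 (adjusted p = 0.0658) or neurons replicate 2 (0.056), and its only probe set without a suffix for shared probes, a dim one, gave 0.11 (adjusted p = 0.697). In the peripheral stalk, which holds the head still, Atp5o (0.41) and Atp5pb (0.31) were called and Atp5j (-0.00) and Atp5h (-0.08) were not. Atp5k was called at 0.55, and Atp5l (0.20) and Atp5j2 (0.17) were not. The count for ATP synthase fell from 10 to 3 without neurons replicate 1 or neurons replicate 2, to 4 without astrocytes replicate 1 and to 7 without astrocytes replicate 2. Atp5md, Atp5g1 and Atp5mpl were called in all 4.

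Probe sets of 1 gene did not always share a call. Of 43 genes with at least 2 tested probe sets, 0 had probe sets called in opposite directions, 17 had all called, 17 had none called and 9 had some called and others not, where 57.2% of all kept probe sets were called. Sdha alone had a spread of more than 1 log2 unit, which came from the dimmest of its tested probe sets.

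Genes that build, feed or control the chain were called in both directions. Over all genes, 31.0% were called higher in neurons and 31.1% higher in astrocytes. Near the latter lay 4 lists with 33.3% higher in astrocytes. These were assembly of complexes II and III, assembly of complex IV, coenzyme Q synthesis and mitochondrial DNA upkeep. The share of other membrane proteins higher in neurons, 34.6%, was near that of all genes too. The assembly factors of complex I, which build it but do not stay in it, included 3 of 17 called higher in neurons and 1 called the other way (median 0.22). Ndufaf5, which modifies a core subunit, read 382 and 454 in neurons and 131 and 138 in astrocytes (1.55 ± 0.16 SE, adjusted p = 4.93e-05). Ndufaf8 went the other way, at 397 and 370 against 637 and 817 (-0.89 ± 0.15, adjusted p = 0.00113), and lost its call without neurons replicate 2 (adjusted p = 0.058). The groups did not overlap for either gene.

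Of the assembly factors of complexes II and III, 2 of 9 were higher in neurons and 3 higher in astrocytes (median -0.13). Ttc19, a factor for complex III, read 232 and 254 in neurons against 86 and 76 (1.45 ± 0.17, adjusted p = 0.000116; 0.95 with the mean of its probe sets), and Uqcc3, which acts on the same complex, 172 and 149 against 307 and 338 (-0.96 ± 0.16, adjusted p = 0.000853). These led in opposite directions, each without overlap. The count higher in astrocytes fell to 1 without neurons replicate 2, astrocytes replicate 1 or astrocytes replicate 2, and that in neurons to 1 without any single array but astrocytes replicate 2.

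Complex IV assembly factors were also mixed, with 4 of 18 higher in neurons and 6 higher in astrocytes (median -0.25), beside the median of 0.37 for the subunits of that complex. Coa6, which helps deliver copper, read 379 and 388 in neurons and 1076 and 1179 in astrocytes (-1.52 ± 0.12, adjusted p = 1.33e-05). Cox11, which inserts copper, read 341 and 331 against 159 and 141 (1.10 ± 0.15, adjusted p = 0.000302). Coa6 and Cox11, the 2 called genes with the largest difference in this list, thus differed in opposite directions. Other genes of the list were not sorted by a role in copper delivery. The count higher in neurons fell to 2 with any 1 array left out, and that in astrocytes to 3 without astrocytes replicate 1 and to 4 without astrocytes replicate 2.

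For ATP synthase assembly and inhibition, 1 of 5 genes was called: Fmc1 read 605 and 552 in neurons and 331 and 468 in astrocytes (0.54 ± 0.18, adjusted p = 0.028), and its call was lost without neurons replicate 1 (adjusted p = 0.241), neurons replicate 2 or astrocytes replicate 1. Among 5 supercomplex and stress factors, 1 was higher in neurons and 2 in astrocytes; the latter fell to 0 without astrocytes replicate 2 and to 1 without any other array. Lrpprc, which stabilises mitochondrial messenger RNAs, read 336 and 390 against 248 and 204 (0.66 ± 0.16, adjusted p = 0.00764). Its binding partner Slirp read 628 and 673 against 938 and 989 (-0.56 ± 0.12, adjusted p = 0.0038). Partners in 1 complex were thus called in opposite directions, but the Lrpprc call was lost without neurons replicate 1, neurons replicate 2 or astrocytes replicate 2 and the Slirp call without astrocytes replicate 2.

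Of 12 genes for synthesis of coenzyme Q, the carrier between the dehydrogenases and complex III, 1 was higher in neurons and 4 were higher in astrocytes (median 0.01). Coq10b, a coenzyme Q binding protein, read 226 and 252 against 603 and 629 (-1.32 ± 0.14, adjusted p = 5.48e-05). Coq8a read 56 and 8 in neurons and 92 and 113 in astrocytes (-1.61 ± 0.48, adjusted p = 0.0191), with neuron replicates far apart, and its call was lost without neurons replicate 2 (adjusted p = 0.0727), astrocytes replicate 1 (0.202) or astrocytes replicate 2 (0.26). The astrocyte count fell from 4 to 2 without neurons replicate 1 and to 1 without any other single array, and the 1 call in neurons held only without neurons replicate 1.

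The list of uncoupling proteins and of enzymes that feed electrons to coenzyme Q by other routes leaned toward astrocytes: 5 of 8 genes were called higher there and 1 in neurons, with a median of -1.34. Gpd2, the mitochondrial glycerol phosphate dehydrogenase of a shuttle for cytosolic reducing power, had signals of 617 and 612 in neurons and 2591 and 2670 in astrocytes. The replicates nearly coincided and the groups differed 4.21-fold (-2.08 ± 0.11, adjusted p = 1.23e-06). Sqor, which oxidises hydrogen sulfide, read 40 and 36 in neurons and 385 and 421 in astrocytes, an 8.23-fold difference (-3.04 ± 0.17, adjusted p = 1.71e-06).

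Etfa, Etfb and Etfdh, named after their values were seen, carry electrons from fatty acid and amino acid oxidation. Etfa read 652 and 568 in neurons and 1576 and 1836 in astrocytes (-1.46), Etfb 312 and 321 against 687 and 879 (-1.26), and Etfdh 414 and 372 against 1106 and 1034 (-1.42). None of them overlapped between the groups, and adjusted p was at most 0.000139. The 5 genes higher in astrocytes, Gpd2, Sqor, Etfa, Etfb and Etfdh, were called in each fit that left out 1 array. The exception in the other direction, the carrier gene Slc25a14 (0.47, adjusted p = 0.0285), lost its call in each of them.

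**Figure D4:**
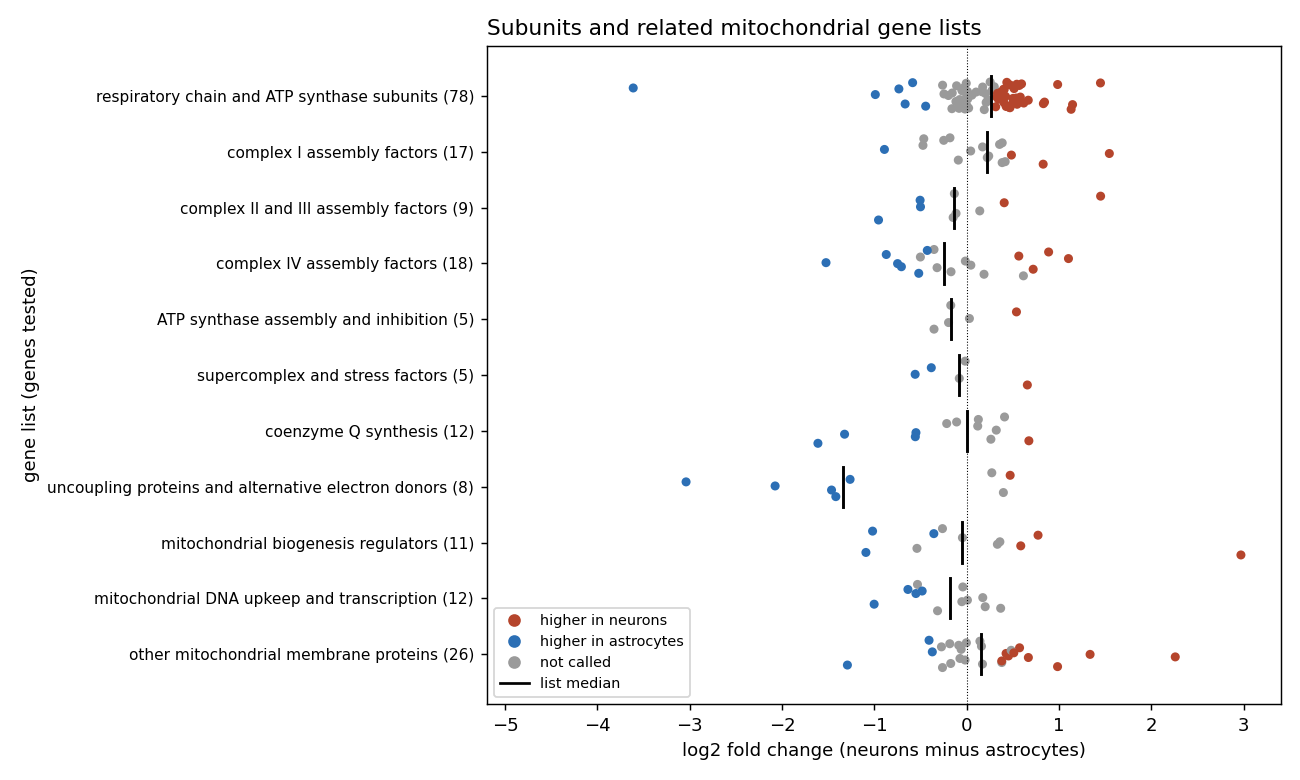
Log2 fold change (neurons minus astrocytes, horizontal axis) of each tested gene in the subunit list and 10 related mitochondrial lists, with the number tested in parentheses; black bars are list medians and colour marks the call. The subunit list has a median of 0.26, and the list of alternative electron donors stands at -1.34.

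The plot of related lists sets each list's genes and median on 1 scale. Of 11 regulators of mitochondrial biogenesis, 3 were higher in neurons and 3 higher in astrocytes (median -0.05). Ppargc1b, a coactivator of the pathway, read 171 and 158 in neurons and 6 and 15 in astrocytes, where it was not above the Bacillus controls of 17 and 15. Set against that background, its neuron signal was at least 10.3-fold higher. It passed the filter only through its neuron arrays. Its better known relative Ppargc1a, named after its values were seen, was level, at 349 and 279 against 354 and 294 (-0.05, interval -0.43 to 0.34). Gabpa, the DNA-binding part of GABP, read 436 and 381 in neurons and 984 and 792 in astrocytes (-1.09 ± 0.15, adjusted p = 0.000309), opposite to the majority of subunit genes. Nrf1, also named after its values were seen, read 54 and 76 against 96 and 102 and was not called (-0.54, adjusted p = 0.058). The neuron count fell to 1 without neurons replicate 1, neurons replicate 2 or astrocytes replicate 2, and to 2 without astrocytes replicate 1; the astrocyte count fell to 2 without neurons replicate 1, astrocytes replicate 1 or astrocytes replicate 2.

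Genes for upkeep and transcription of mitochondrial DNA had 4 of 12 members higher in astrocytes and 0 in neurons in limma, the first falling to 2 with any 1 array left out; 0 genes of this list reached an unadjusted p under 0.05 with neurons higher. Ssbp1, which coats single-stranded mitochondrial DNA, read 922 and 835 in neurons and 1642 and 1909 in astrocytes (95% confidence interval of the log2 fold change -1.29 to -0.72, adjusted p = 0.000181), and with the mean of all its probe sets the difference was -0.37. Tfb2m, a transcription factor of mitochondria, read 327 and 331 against 531 and 506 (-0.64 ± 0.13, adjusted p = 0.00294). Both were higher on both astrocyte arrays.

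Finally, 26 other membrane proteins of mitochondria, such as channels and import machinery, split into 9 higher in neurons, 3 higher in astrocytes and 14 not called (median 0.15). The counts with 1 array left out were 5 or 6 for neurons (5 without neurons replicate 2 or astrocytes replicate 1, 6 without neurons replicate 1 or astrocytes replicate 2) and 1 for astrocytes in each fit. Tomm70a, an import receptor of the outer membrane, read 2479 and 2494 in neurons and 524 and 495 in astrocytes (2.26 ± 0.11, adjusted p = 9.14e-07); with the mean of all its probe sets the difference was 0.95. Timm9, a chaperone of the intermembrane space, read 194 and 187 against 63 and 73 (1.34 ± 0.18, adjusted p = 0.000245). Without probe sets of suffix s, x or a its difference was 0.79. Both were named as the 2 called genes with the largest difference in their list, so their distance from its median follows from that choice.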

How the data were processed

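Total RNA was labelled from 50 ng through 2 cycles of cDNA synthesis, per the labels' protocols. The authors deposited linear probe set intensities, made with MAS5 according to the submitters' processing notes, in a version not stated there. The mean signal after trimming 2% at each end was 150.0 on every array to 1 decimal, so the arrays share a scale. No detection calls were used.

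Values were transformed to log2(value + 12.5), so fold changes understate those of dim genes, except folds given as "at least", which use raw signals against the mean of the highest of 27 Bacillus controls (15 to 23). Of 45101 probe sets, 64 were controls. Probe sets at or above the array median on at least 2 of 4 arrays were kept (25019). The test was limma 3.58.1 under R 4.3.3 (lmFit, then eBayes with trend, two-sided, Benjamini-Hochberg over kept probe sets, threshold 0.05). It was also run on simulated data, with spreads drawn from its own fitted model and independent noise. That run held no shift shared across an array, so it cannot speak to such shifts in these data. Among the kept probe sets with 1 symbol in the platform annotation, the one of highest mean stood for its gene. Only 2 arrays per group limit the precision: the median standard error was 0.18 over genes. Replicates of a group correlated at 0.980 and 0.983. The exact permutation test on 2 against 2 arrays cannot reach the threshold and was not used.

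Genes were named with array values by rule: in each complex the 2 largest called differences in each direction and the gene of highest mean, complex I core, complex II, paralogous isoforms, and 2 called genes per related list. Members and lists were chosen with earlier results of these data known. Alternatives varied offset, filter, normalization, probe set choice, trend, block and arrays.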

Additional observations from a re-analysis of the deposited data

How the results depend on the processing

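The median log2 fold change of the subunit genes, 0.26, lay between 0.22 and 0.30 under all 13 alternatives run, and the direction of the list's lean was the same in each. The count of genes called higher in neurons, 37, fell to 22 with no filter and to 18 with no mean-variance trend, and it was 11 to 21 with 1 array left out. The count higher in astrocytes, 6, fell to 3 without probe sets of suffix s, x or a, which left 56 genes. Uqcr10 turned to -0.22 (adjusted p = 0.296) when read without such probe sets; the cause was not tested. Quantile normalization gave 36 and 6. With the replicate number as a block the counts stayed at 37 and 6, with the same 43 genes called, and the median at 0.26. The numbers were not shown to pair the arrays. The deviations of arrays with the same number correlated at -0.09 over kept probe sets and at -0.26 over the subunit genes. With 2 arrays per group, differences near the median standard error of 0.12 for these genes could not be told from array spread. The alternatives for related lists were chosen after seeing the data.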
